A study of Homo sapiens with 6 samples.

Results

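Untreated T24 cells were described through their 3 control RNA-seq libraries, gene by gene. A gene was counted as expressed when its annotated biotype was protein-coding and its mean over control replicates 1 and 2 was at least 10 normalized counts, where a normalized count is the number of reads divided by 1 size factor per library. By this rule 11870 of the 14866 protein-coding genes in the table were expressed (79.8%), out of 23619 genes of all biotypes. T24 is an established line from a human urothelial carcinoma of the bladder. The libraries carry the labels wild type for genotype and none for treatment, and the cells grew in DMEM with fetal bovine serum and antibiotics. All 3 libraries come from this 1 line, the labels mention no vehicle, and whether each replicate had its own culture is not in the labels. The series also holds 3 libraries from cells given Caba-780, which are not used here.

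The libraries held 15785965, 15033139 and 14591234 reads in genes for control replicates 1, 2 and 3. At this depth a count of 0 allows up to 3 reads, and this limit covers counting error only. It is 0.190, 0.200 and 0.206 CPM in the 3 libraries, that is reads scaled by the total of reads in genes. The limit is too narrow for control replicate 3, as UBALD1 had 583, 540 and 0 reads in control replicates 1, 2 and 3. Control replicate 3 stood apart: a read was found in 13627 genes, against 19845 and 19467 genes in control replicates 1 and 2. Only 152 genes had exactly 1 read in control replicate 3, against 1536 and 1476 genes in the other libraries. Its values are therefore given beside those of control replicates 1 and 2 and are not averaged with them here. Levels of different genes are compared as TPM, that is reads per base of gene, scaled to the same total in each library. All differences between genes below are descriptions of these libraries. No test was made, because the libraries form 1 group.

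The urothelium is a stratified epithelium that lines the bladder. Its basal cells carry keratins and integrins that hold them to the basement membrane, and its surface cells are covered with uroplakin plaques, which make the lining tight to urine. In carcinoma lines this programme can be kept in part, and mesenchymal genes such as vimentin and N-cadherin can stand beside epithelial keratins.

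Expression was spread over many genes, with a small number at very high levels. The median expressed gene stood at 26.3, 24.2 and 21.6 TPM in control replicates 1, 2 and 3. By the mean of control replicates 1 and 2, 473 expressed genes lay under 1 TPM, 2837 between 1 and 10, 6736 between 10 and 100, 1734 between 100 and 1000, and 90 at 1000 TPM or more. These 90 genes held 27.6% of the TPM of all expressed genes. The 10 most abundant held 11.2% over control replicates 1 and 2 and 18.1% in control replicate 3. It took 573, 513 and 402 genes to reach 50% of the TPM. Near the threshold, the 26 genes up to 0.5 normalized counts above it had a median of 0.55 TPM, and the 49 genes up to 0.5 below it had a median of 0.61 TPM.

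**Figure D1:**
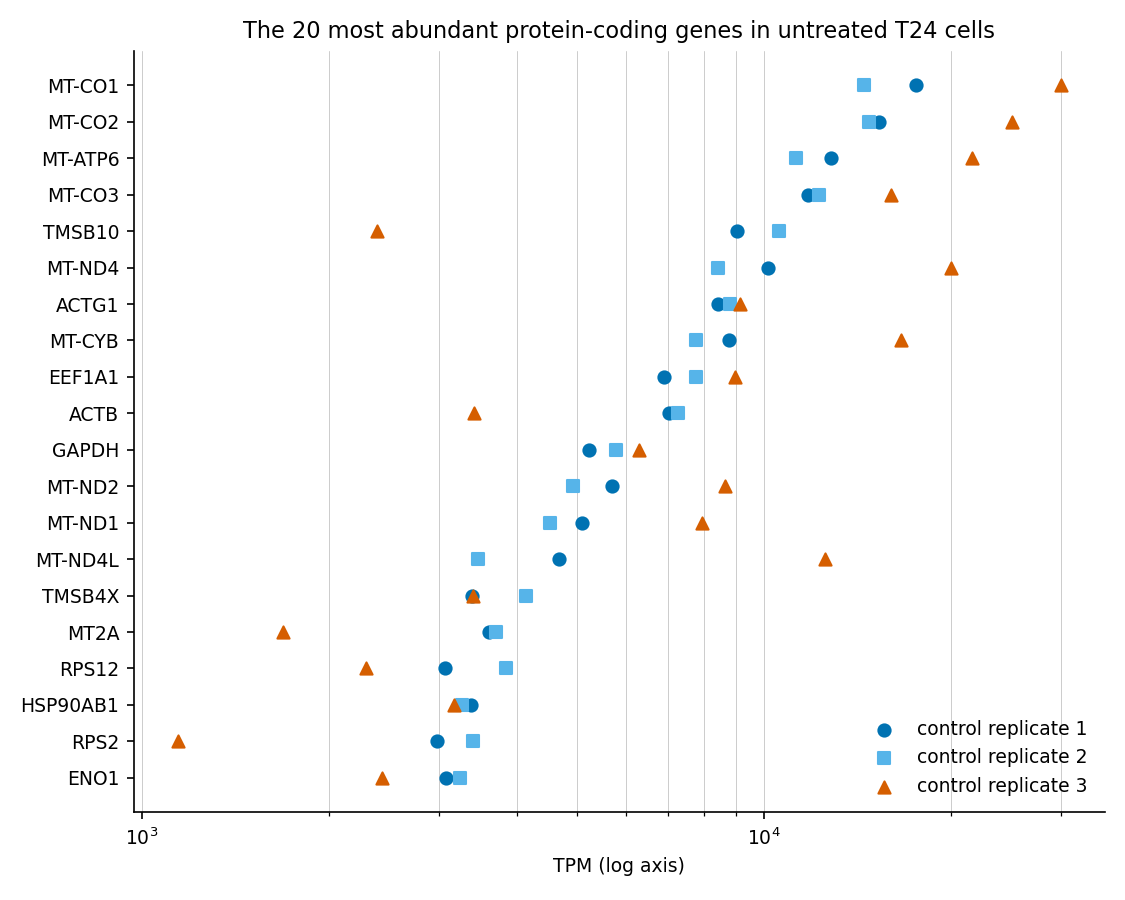
TPM (log axis) of the 20 most abundant expressed genes, ordered by the mean of control replicates 1 and 2, with 1 point per library. Control replicates 1 and 2 lie close together for every gene, while control replicate 3 lies above them for the mitochondrial genes and far below them for TMSB10 (2384 against 9044 and 10576 TPM).

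The mitochondrial genome supplied the most abundant messages. Its protein-coding genes held 9.71% and 8.67% of all TPM in control replicates 1 and 2 and 17.0% in control replicate 3. MT-CO1, which encodes the core subunit of cytochrome c oxidase, had 17564, 14487 and 29984 TPM in control replicates 1, 2 and 3. MT-CO2, the second subunit of the same enzyme, had 15282, 14741 and 25071 TPM. MT-ATP6, a proton channel subunit of ATP synthase, had 12813, 11277 and 21569 TPM. All 3 were higher in control replicate 3 than in either other library. The lowest of the 13 mitochondrial coding genes was MT-ATP8, another ATP synthase subunit, at 264, 220 and 994 TPM. Of the 100 most abundant expressed genes, 12 were mitochondrial, 27 encoded cytosolic ribosomal proteins and 61 were other genes.

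Outside the mitochondrial genome, actin-binding and cytoskeletal genes led by TPM. TMSB10 (chr2:84905625-84906675, hg38), which encodes the actin monomer-binding peptide thymosin beta 10, had 9044, 10576 and 2384 TPM in control replicates 1, 2 and 3. ACTG1 (chr17:81509971-81523847), the gene of cytoplasmic gamma actin, had 8442, 8810 and 9151 TPM, a narrow range over the libraries. EEF1A1 (chr6:73515750-73523797), the elongation factor that brings aminoacyl-tRNA to the ribosome, had 6914, 7784 and 8970 TPM. Next came ACTB, the gene of beta actin, with 7027, 7263 and 3423 TPM. The glycolytic gene GAPDH followed with 5231, 5779 and 6295 TPM. The order of these genes depended on the scaling. With the length of the longest coding transcript in place of the deposited length, ACTB, ACTG1 and EEF1A1 stood above TMSB10. By normalized counts EEF1A1 was the highest of them. Reads of actin, elongation factor and ribosomal protein genes can be split among near-identical copies and pseudogenes, so these levels are uncertain.

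Further members of the leading 20 were TMSB4X, MT2A, RPS12, HSP90AB1, RPS2 and ENO1. MT2A, which encodes a metallothionein that binds zinc and copper, had 3607, 3711 and 1684 TPM. HSP90AB1, the constitutive cytosolic HSP90 chaperone, had 3381, 3269 and 3179 TPM, nearly the same in all libraries. The glycolytic enzyme gene ENO1 had 3079, 3242 and 2429 TPM. Below these, IGFBP4, a secreted binding protein of insulin-like growth factors, reached 2404, 2432 and 871 TPM. ID1, an inhibitor of basic helix-loop-helix transcription factors, reached 2083, 2284 and 758 TPM, and EEF2, the factor that moves the ribosome along the message, reached 3036, 2822 and 1784 TPM.

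Promoters of 6 highly abundant genes are shown, 4 with the letters TATAAA and 2 without, because the share of windows with these letters differed between levels of expression. Sequences are from RefSeq (GRCh38.p14) and cover 250 bases before to 50 bases after the start, written 5′ to 3′ on the strand of the gene. Capitals mark TATAAA, the letters of a TATA box, and CTCTTT, both on either strand. CTCTTT has the letters of the core of the pyrimidine tract found at the start of many translation genes. It was marked at any position in the window, so a marked stretch need not be such a tract.
TMSB10, chr2:84905406-84905705, plus strand: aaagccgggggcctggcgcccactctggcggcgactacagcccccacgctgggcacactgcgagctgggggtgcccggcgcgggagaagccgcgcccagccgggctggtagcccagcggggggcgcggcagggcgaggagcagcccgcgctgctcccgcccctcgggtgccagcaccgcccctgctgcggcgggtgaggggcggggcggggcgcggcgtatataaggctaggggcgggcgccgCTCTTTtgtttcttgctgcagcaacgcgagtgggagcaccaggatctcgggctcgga
MT2A, chr16:56608334-56608633, plus strand: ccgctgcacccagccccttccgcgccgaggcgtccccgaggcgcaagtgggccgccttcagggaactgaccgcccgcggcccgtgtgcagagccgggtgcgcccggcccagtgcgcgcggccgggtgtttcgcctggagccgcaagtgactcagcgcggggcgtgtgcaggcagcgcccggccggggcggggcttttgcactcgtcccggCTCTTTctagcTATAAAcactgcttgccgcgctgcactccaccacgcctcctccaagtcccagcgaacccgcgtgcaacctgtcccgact
RPS12, chr6:132814319-132814618, plus strand: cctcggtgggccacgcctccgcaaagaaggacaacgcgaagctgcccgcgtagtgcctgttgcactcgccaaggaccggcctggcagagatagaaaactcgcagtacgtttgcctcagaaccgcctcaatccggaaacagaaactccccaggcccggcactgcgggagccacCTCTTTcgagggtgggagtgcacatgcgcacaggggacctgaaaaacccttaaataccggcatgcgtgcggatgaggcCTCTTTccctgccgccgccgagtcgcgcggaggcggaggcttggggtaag
EEF2, chr19:3985414-3985713, minus strand: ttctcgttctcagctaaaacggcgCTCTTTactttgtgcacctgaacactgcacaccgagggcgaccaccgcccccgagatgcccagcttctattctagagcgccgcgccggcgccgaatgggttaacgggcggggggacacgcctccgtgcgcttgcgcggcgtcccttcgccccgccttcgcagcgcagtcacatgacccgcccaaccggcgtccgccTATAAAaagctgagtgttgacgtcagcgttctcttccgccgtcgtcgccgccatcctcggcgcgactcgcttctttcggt
IGFBP4, chr17:40443200-40443499, plus strand: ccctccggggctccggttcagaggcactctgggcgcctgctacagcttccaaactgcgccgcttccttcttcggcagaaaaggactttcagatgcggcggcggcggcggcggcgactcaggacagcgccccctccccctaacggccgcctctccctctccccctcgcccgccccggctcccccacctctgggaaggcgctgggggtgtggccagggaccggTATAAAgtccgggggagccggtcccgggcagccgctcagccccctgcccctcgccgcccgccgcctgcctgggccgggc
ID1, chr20:31605039-31605338, plus strand: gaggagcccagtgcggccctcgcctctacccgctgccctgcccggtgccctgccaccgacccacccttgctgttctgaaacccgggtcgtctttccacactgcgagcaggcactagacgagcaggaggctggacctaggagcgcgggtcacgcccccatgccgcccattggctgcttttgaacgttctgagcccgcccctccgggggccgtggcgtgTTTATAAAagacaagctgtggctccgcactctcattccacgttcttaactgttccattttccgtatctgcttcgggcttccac
TATAAA began 29 bases before the start in MT2A and IGFBP4, 30 bases before it in EEF2 and 31 bases before it in ID1, where it overlaps its own reverse complement. The exact letters TATAAA are not in the windows of TMSB10 and RPS12, and variants of the TATA box were not searched. RPS12 holds CTCTTT at its first transcribed bases and a further copy before the start. In TMSB10, MT2A and EEF2 the marked CTCTTT lies before the start.

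Among expressed genes outside the mitochondrial genome at 1000 TPM or more, 63 of 78 had a promoter in the RefSeq table, and 14 of these 63 windows (22.2%) held TATAAA on either strand. The share was 6.37% for genes between 100 and 1000 TPM, 3.99% between 10 and 100 TPM and 11.5% over all 35116 promoters of the table. On the strand of the gene, with the first letter 35 to 25 bases before the start, TATAAA stood in 10 of the 63 windows (15.9%), in 2.53% and 0.877% of those lower tiers and in 2.17% of all promoters. Besides the 4 shown above, the 10 genes were RPLP0, CALR, CTGF, PPIA, DUSP1 and SLC25A5. The motif CTCTTT was in 34.8% of windows of 66 cytosolic ribosomal protein genes, against 15.8% over all expressed genes and 20.9% over all promoters. These shares count CTCTTT at any position on either strand, so they are not shares of tracts at the start. Of all expressed genes, 81.6% had a window. Fewer than 80% had one among expressed genes under 1 TPM (74.0%) and between 1 and 10 TPM (78.2%). The same held for genes with under 3 reads (69.0%) and for genes between that limit and the threshold of expression (72.2%). No share is given for these tiers. Among the windows they had, TATAAA was more frequent in each of them than between 10 and 100 TPM. Its share therefore did not rise steadily with level. The start and end of this position range were chosen after the motif positions had been seen.

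In 55 families with at least 2 analysed genes, the most abundant member was set against the next. In 50 of them the higher gene led in both control replicates 1 and 2 with no overlap of the 2 genes' ranges. In 13 families the leading gene held over 90% of the summed TPM of the family, and in 16 it held under 50%. Shares below are of the mean TPM of control replicates 1 and 2. Families were listed with results of these data known.

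**Figure D2:**
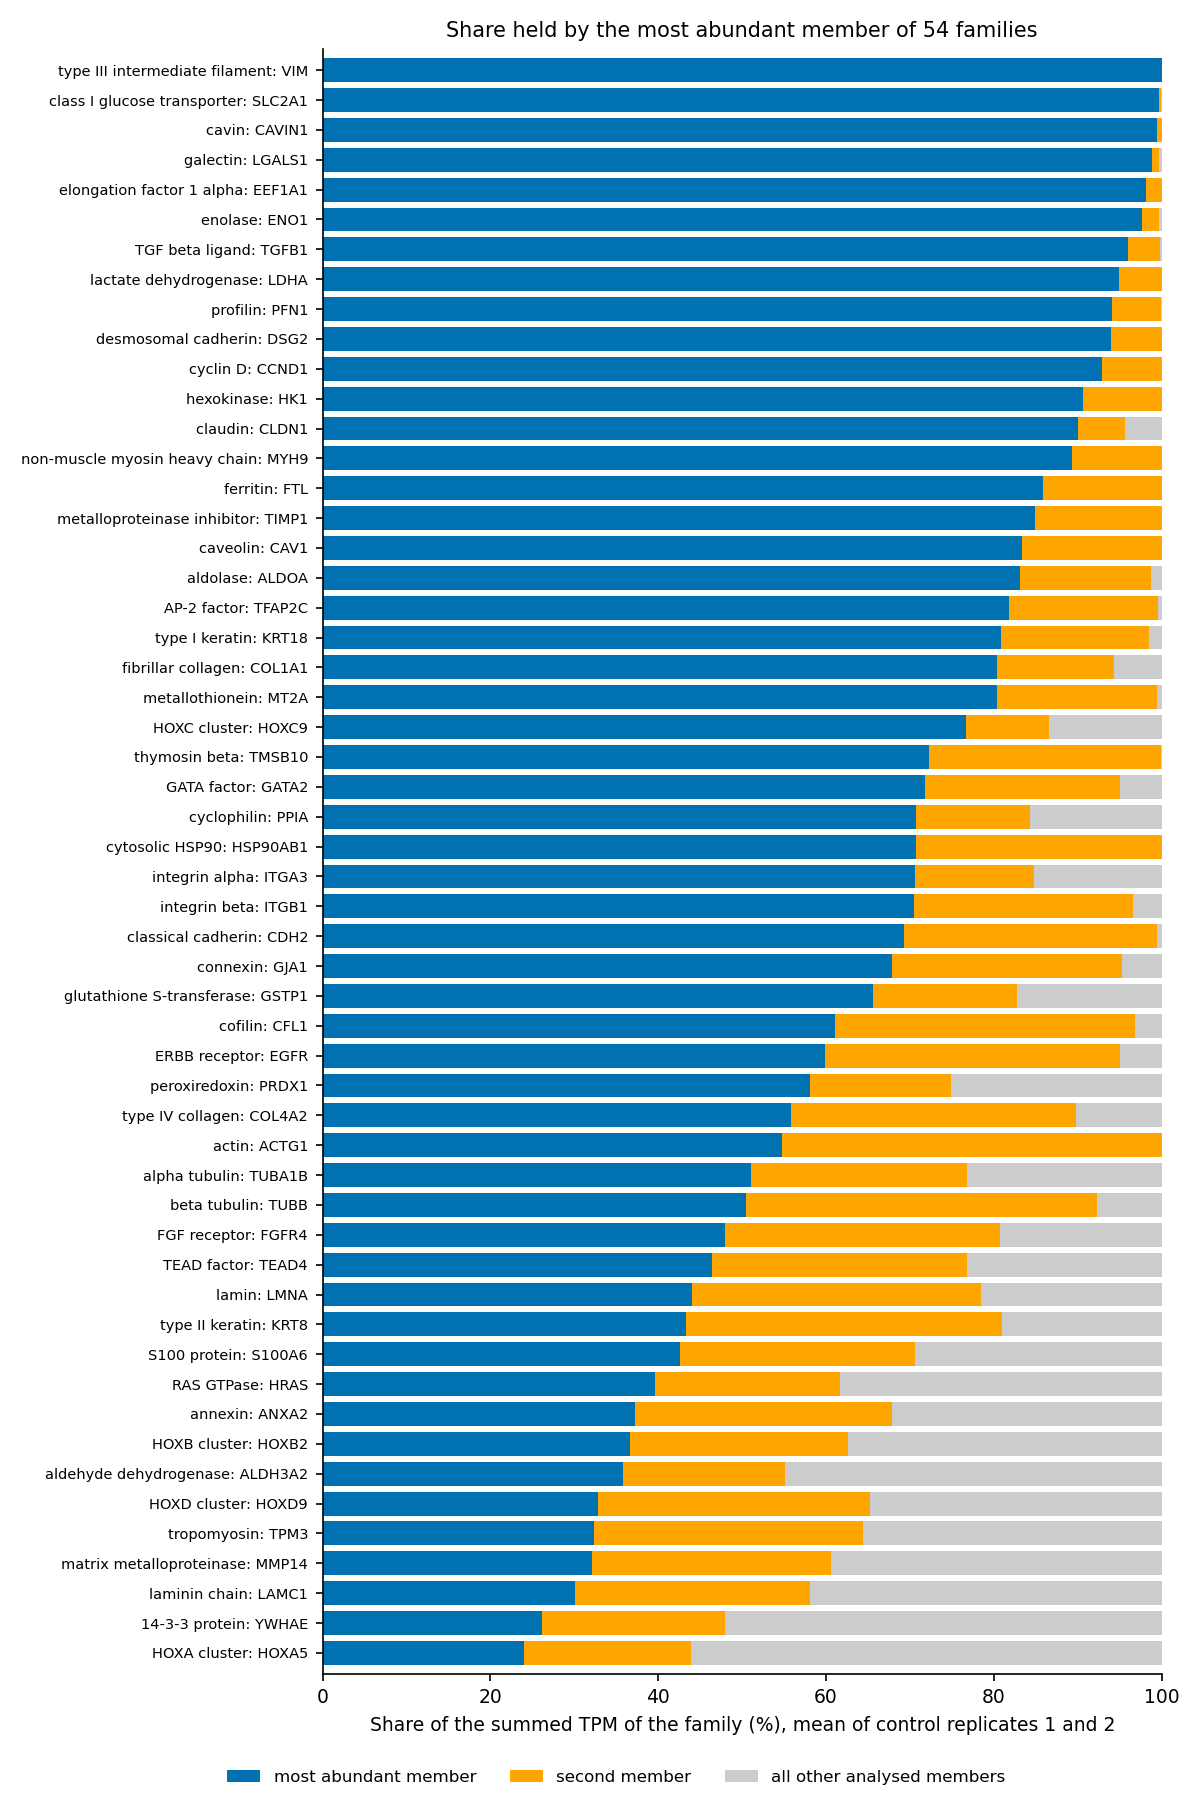
Share of the summed TPM of each of 54 families held by its most abundant member (named beside the bar), by the second member and by all other analysed members, as the mean of control replicates 1 and 2. Shares of the leading gene run down to 24.0% for HOXA5 in the HOXA cluster.

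Cytoskeletal families were led by the non-muscle forms. ACTG1 held 54.7% of actin TPM and ACTB 45.3%, and this order turned round when the length of the longest coding transcript was used in place of the deposited length. The muscle actins ACTA1 and ACTC1 had 0 reads in all 3 libraries. MYH9, the heavy chain of non-muscle myosin IIA, had 1296, 917 and 847 TPM, against 151, 113 and 142 TPM for MYH10, the heavy chain of myosin IIB. PFN1, the main profilin, held 94.0% of its family at 2836, 3210 and 826 TPM. TMSB10 exceeded TMSB4X in control replicates 1 and 2 (3395 and 4136 TPM for TMSB4X), but TMSB4X was higher in control replicate 3 (3402 TPM) and by normalized counts.

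The actin-severing gene CFL1 had 590, 624 and 126 TPM, against 330, 380 and 589 TPM for its relative DSTN, so DSTN led in control replicate 3. Among beta tubulins TUBB had 2531, 2536 and 2045 TPM and TUBB4B 2073, 2128 and 1052 TPM. The alpha tubulin gene TUBA1B had 1019, 1026 and 574 TPM, and TUBA1A had 476, 560 and 595 TPM, ahead of it in control replicate 3. LMNA, which encodes lamins A and C of the nuclear envelope, had 510, 497 and 234 TPM, against 446, 343 and 144 TPM for LMNB2. The tropomyosins TPM3 (388, 413 and 498 TPM) and TPM2 (388, 404 and 186 TPM) overlapped in control replicates 1 and 2, so neither led.

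Keratins of simple epithelia and vimentin stood side by side. KRT18, a type I keratin of simple epithelia, had 264, 290 and 297 TPM and held 80.9% of the type I keratins analysed. Its type II partner KRT8 had 231, 230 and 109 TPM, followed by KRT80 with 206, 196 and 136 TPM, which led in control replicate 3. KRT7, common in glandular and urothelial cells, had 87.7, 99.8 and 33.5 TPM. VIM (chr10), the intermediate filament of mesenchymal cells, had 430, 456 and 854 TPM. The next type III filament gene, GFAP of astrocytes, had at most 1 read per library. The second type I keratin was KRT10, a keratin of the epidermis, with 52.2, 68.0 and 40.1 TPM. KRT13 and KRT16, keratins of stratified epithelia, had 0 reads in all 3 libraries.

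Cell junction families each had a clear leader. CDH2, which encodes N-cadherin, had 83.2, 62.7 and 87.3 TPM and 69.3% of classical cadherin TPM. The second cadherin was CDH24 at 35.2, 28.1 and 9.80 TPM. CDH1 (E-cadherin) and CDH3 (P-cadherin) had 0 reads in all 3 libraries, which by counting error alone allows up to 3 reads in each. CLDN1, a claudin of tight junctions, had 722, 651 and 1015 TPM and CLDN12 came next at 43.4, 42.1 and 55.6 TPM. The desmosomal gene DSG2 had 180, 155 and 192 TPM, against 12.2, 9.13 and 16.2 TPM for DSC2. GJA1, which encodes the gap junction protein connexin 43, had 193, 180 and 254 TPM, against 83.9, 66.1 and 111 TPM for GJC1, although GJC1 had the higher normalized count.

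Adhesion to matrix was led by the integrin subunits ITGA3 and ITGB1. ITGA3, which pairs with ITGB1 as a laminin receptor, had 1175, 851 and 530 TPM and 70.6% of the alpha subunits, ahead of ITGAV with 222, 182 and 272 TPM. ITGB1 had 746, 648 and 386 TPM and 70.5% of the beta subunits, ahead of ITGB5 with 276, 240 and 150 TPM. The laminin chains LAMC1 (270, 171 and 219 TPM) and LAMA5 (264, 148 and 53.9 TPM) overlapped in control replicates 1 and 2. Basement membrane collagen IV was led by COL4A2 (155, 95.8 and 29.7 TPM) over COL4A1 (90.4, 62.5 and 41.6 TPM), with COL4A1 ahead in control replicate 3. COL18A1, the basement membrane collagen that yields endostatin, was the most abundant collagen chain at 885, 595 and 66.7 TPM. Fibrillar collagens were low, with COL1A1 at 12.7, 7.92 and 5.91 TPM. Of 11 matrix metalloproteinases analysed 6 were expressed, against 79.8% of all listed protein-coding genes. MMP14 (17.9, 14.1 and 5.44 TPM) overlapped MMP15 (17.2, 11.1 and 4.95 TPM). The inhibitor TIMP1 had 396, 448 and 341 TPM, against 78.7, 71.4 and 43.2 TPM for TIMP2.

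Genes of the membrane and calcium-binding families were abundant. LGALS1, a galectin that binds cell surface sugars, held 98.9% of galectin TPM at 2271, 2725 and 510 TPM, while LGALS3 had 5.92, 7.07 and 7.44 TPM. S100A6 led the S100 proteins with 2740, 3188 and 1375 TPM, and S100A11 followed with 1795, 2117 and 643 TPM. ANXA2, an annexin that binds membrane lipids in the presence of calcium, had 700, 808 and 397 TPM, ahead of ANXA5 (591, 647 and 595 TPM) except in control replicate 3. CAV1 and CAVIN1 build caveolae, small pits of the cell membrane. CAV1 had 335, 359 and 483 TPM, and CAVIN1 had 625, 551 and 422 TPM and 99.5% of the cavin TPM.

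Among metabolic and stress families, LDHA, the form of lactate dehydrogenase that favours lactate formation, had 1897, 2055 and 3809 TPM, against 94.7, 119 and 479 TPM for LDHB. ENO1 held 97.6% of enolase TPM. HK1, which starts glycolysis by phosphorylating glucose, had 107, 97.5 and 66.0 TPM, against 12.7, 8.38 and 14.4 TPM for HK2. The glucose transporter SLC2A1 had 110, 85.5 and 26.1 TPM and 99.7% of its class. ALDOA, the aldolase of most tissues, was listed at only 10.6, 10.1 and 0.90 TPM, and at least 50% of its exon bases lie in exons of another gene, so this level is uncertain. The ferritin light chain gene FTL had 2172, 2493 and 798 TPM, against 380, 392 and 52.3 TPM for FTH1, whose exons also overlap another gene over at least 50% of their bases. GSTP1, a glutathione transferase, had 745, 850 and 223 TPM, and GSTO1 had 187, 232 and 552 TPM and led in control replicate 3. PRDX1, a peroxide-removing enzyme, had 1935, 2094 and 1592 TPM and 58.1% of its family, and MT2A held 80.4% of metallothionein TPM.

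HSP90AA1, the stress-inducible HSP90, had 1375, 1378 and 2330 TPM, under HSP90AB1 in each library. PPIA, the cyclophilin that binds cyclosporin, had 1078, 1319 and 948 TPM, against 225, 234 and 331 TPM for PPIB of the endoplasmic reticulum. Among 14-3-3 proteins, adaptors that bind phosphorylated partners, YWHAE had 948, 1110 and 976 TPM and YWHAQ 813, 904 and 1531 TPM. YWHAQ led in control replicate 3 and YWHAZ led by normalized counts. ALDH3A2, which oxidizes fatty aldehydes, had 212, 208 and 307 TPM, against 111, 114 and 174 TPM for ALDH9A1. PKM, the pyruvate kinase of most tissues, had 1242, 1240 and 833 TPM.

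The RAS family was spread over several members. HRAS had 411, 447 and 241 TPM and 39.6% of the family, RRAS had 234, 245 and 27.0 TPM, and RRAS2 had 186, 190 and 319 TPM. NRAS had 178, 167 and 397 TPM and was the highest in control replicate 3. These genes encode small GTPases that pass signals from receptors, and HRAS is known in T24 for its activating mutation, which counts per gene do not show.

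The ERBB receptors were led by EGFR, at 170, 111 and 191 TPM, over ERBB2 at 91.1, 74.3 and 33.7 TPM. Among FGF receptors FGFR4 had 24.4, 26.8 and 7.94 TPM and FGFR1 18.6, 16.4 and 8.02 TPM, and FGFR1 led by both other scalings and in control replicate 3. FGFR3, often mutated in bladder tumours, had 11.6, 8.99 and 2.67 TPM, and FGFR2 had at most 1 read per library. The ligand TGFB1 had 319, 314 and 110 TPM and 96.0% of the TGF beta TPM. EPHA2, an ephrin receptor, had 555, 409 and 139 TPM. Of 14 FGF ligands analysed 3 were expressed (21.4%, against 79.8% of all listed protein-coding genes), led by FGF5 at 72.5, 64.3 and 91.4 TPM. Of 12 listed WNT ligands 7 were expressed (58.3%), led by WNT5B at 166, 146 and 117 TPM. CXCL1, a chemokine that attracts neutrophils, led 6 expressed chemokines of 11 listed (54.5%) with 57.3, 61.7 and 10.8 TPM.

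CCND1, the cyclin that drives cells out of G1, had 591, 531 and 634 TPM and 92.9% of the cyclin D TPM, with CCND3 at 41.6, 44.5 and 17.2 TPM. All 6 subunits of the MCM helicase, which opens DNA for replication, were expressed, led by MCM3 at 340, 316 and 299 TPM. Of 38 listed kinesin motors 33 were expressed (86.8%, against 79.8% of all listed protein-coding genes). The highest was KIF20A, a kinesin of cytokinesis, at 274, 267 and 177 TPM.

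Cytosolic and mitochondrial ribosomal proteins, proteasome genes and initiation factors were expressed almost whole, while potassium channels, protocadherins, olfactory receptors and mucins were not. The share over all listed protein-coding genes was 79.8%. Against this, 82 of 83 cytosolic ribosomal proteins, 46 of 47 proteasome genes, 53 of 54 translation initiation factors and 76 of 78 mitochondrial ribosomal proteins were expressed. The cytosolic ribosomal proteins held 6.26%, 7.56% and 5.60% of all TPM, with RPS12 the highest at 3067, 3854 and 2295 TPM. Of 450 ZNF zinc finger genes 409 were expressed, at a median of 6.82 TPM. By contrast 22 of 58 potassium channel genes, 14 of 42 protocadherins, 2 of 17 olfactory receptors and 1 of 7 mucins were expressed. The highest potassium channel gene was KCNF1 at 73.4, 82.1 and 38.6 TPM, and the mucin MUC1 of epithelial surfaces had 1.32, 0.58 and 0 TPM. These groups were formed by symbol after the values had been seen. Each count is out of the listed genes of the group, not the whole family, and genes that are not listed are left out.

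The annotation in the table marks 1213 of the protein-coding genes as transcription factors, and 1026 of them (84.6%) were expressed, at a median of 11.4 TPM. The highest was YBX1, a cold shock protein that binds DNA and RNA, with 2412, 2623 and 1274 TPM. ID1 was second, and HMGA1, an architectural chromatin protein, followed with 1283, 1269 and 406 TPM. Among other factors of the list, EGR1 had 1019, 1094 and 922 TPM, JUNB 550, 645 and 201 TPM, JUND 551, 568 and 96.5 TPM, and FOSL1 533, 479 and 57.5 TPM. DUSP1, a phosphatase that switches off MAP kinases, had 1014, 1130 and 1824 TPM. These examples outside the families were chosen after their values were seen. SOX9, a factor of progenitor cells in many epithelia, had 265, 229 and 173 TPM.

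Regulators of the Hippo pathway and of urothelial identity differed in level. TEAD4 had 102, 97.2 and 57.9 TPM and TEAD1 73.0, 57.1 and 151 TPM, so TEAD1 led in control replicate 3, and it led by normalized counts too. TFAP2C, an AP-2 factor of epithelia, had 65.1, 64.8 and 27.4 TPM, against 14.4, 13.8 and 9.37 TPM for TFAP2A. GATA2 had 8.49, 7.43 and 0 TPM and GATA6 2.15, 3.03 and 1.85 TPM. GATA3, a marker of luminal urothelium, had 5, 0 and 13 reads.

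The HOX genes, which mark position along the body axis, were expressed from all 4 clusters. The HOXB cluster was the highest, with 192, 190 and 87.6 TPM in sum, against 63.0, 65.4 and 48.0 TPM for HOXA, 25.7, 34.4 and 12.3 TPM for HOXC and 28.1, 29.9 and 16.7 TPM for HOXD. HOXB2 had 65.0, 74.9 and 7.28 TPM and HOXB7 48.4, 50.7 and 61.5 TPM, so HOXB7 led in control replicate 3. In the HOXC cluster HOXC9 held 76.7% at 19.9, 26.3 and 8.20 TPM. HOXA5 overlapped HOXA3 (12.5, 13.1 and 8.47 TPM) in control replicates 1 and 2 and stood at 26.7 TPM in control replicate 3, and HOXD9 (9.46, 9.59 and 4.48 TPM) overlapped HOXD11 (8.38, 10.4 and 3.84 TPM). The posterior genes HOXA11 and HOXB13 had at most 1 and 6 reads per library.

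Of the 11 lineage lists, the mesenchymal, simple epithelial and basal lists had the highest summed TPM. In each of these lists a few genes carried most of it. Of 151 markers 89 were analysed, and 37 of these were expressed, against 79.8% of all listed protein-coding genes. Markers not found by symbol among the listed protein-coding genes were left out. The lists are short, so their counts describe these genes alone.

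**Figure D3:**
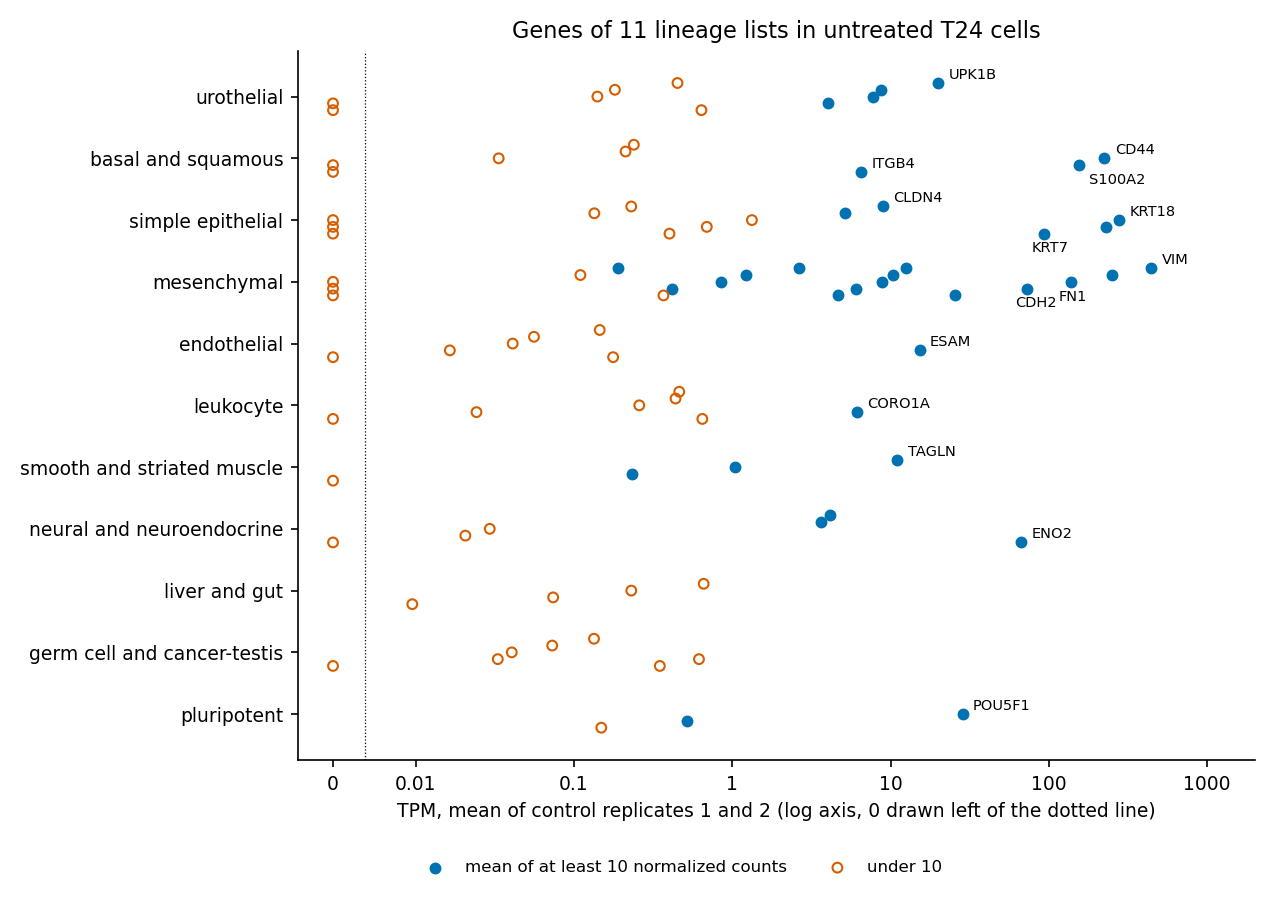
TPM (log axis) of the analysed markers of each lineage list, as the mean of control replicates 1 and 2, with 1 point per gene, filled for expressed genes and open for the others. Points of the mesenchymal and simple epithelial lists reach 443 TPM (VIM) and 277 TPM (KRT18), while no marker of the liver and gut list or of the germ cell list was expressed.

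The urothelial list was mostly low. Of 10 analysed genes 4 were expressed, and the list summed to 45.7, 37.8 and 36.5 TPM in control replicates 1, 2 and 3. UPK1B, a uroplakin of the surface plaques, was the highest at 22.3, 17.6 and 23.7 TPM. ELF3, an epithelial ETS factor, had 297, 202 and 56 reads. FOXA1, a factor of luminal urothelium, had 8.13, 7.32 and 6.31 TPM, and PPARG, a nuclear receptor of urothelial differentiation, had 3.90, 4.18 and 3.39 TPM. The uroplakin genes UPK1A and UPK2 had at most 4 reads per library, UPK3B had at most 2, and KRT13 and GRHL3 had 0 reads in all 3 libraries. Of the markers that define the surface layer of the bladder, UPK1B alone was clearly present.

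Of the basal and squamous list 3 of 8 analysed genes were expressed. CD44, the hyaluronan receptor, had 246, 202 and 387 TPM. S100A2, a calcium-binding protein of basal keratinocytes, had 150, 159 and 53.4 TPM, and ITGB4, the hemidesmosome integrin, had 7.44, 5.60 and 3.67 TPM. TP63, the master factor of basal cells, had at most 2 reads per library.

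The simple epithelial list had 5 expressed genes of 13 and summed to 601, 635 and 453 TPM, nearly all from the keratins described above. CLDN4 had 10.4, 7.37 and 1.44 TPM and CLDN3 4.89, 5.48 and 6.78 TPM. CLDN7 had 0 reads in all 3 libraries. EPCAM, a surface protein of most epithelial cells, had 0 reads in control replicates 1 and 2 and 34 reads (3.64 TPM) in control replicate 3. ESRP1 and ESRP2, the splicing factors of epithelial cells, had 3 to 6 reads in control replicates 1 and 2 and 16 and 19 reads in control replicate 3.

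The mesenchymal list had 15 expressed genes of 20 (75%, against 79.8% of all listed protein-coding genes) and summed to 1030, 926 and 1562 TPM. The median of its analysed genes was 3.65 TPM. Of the 15 expressed genes, 9 had a read in control replicate 3, and 12 stayed at a threshold of 20 normalized counts. Besides VIM and CDH2, the receptor tyrosine kinase AXL had 264, 239 and 507 TPM, and fibronectin (FN1) had 172, 103 and 82.8 TPM. COL6A2, a chain of collagen VI, had 27.5, 23.6 and 4.76 TPM. The transcriptional repressors of E-cadherin were present at low levels: ZEB1 had 8.84, 8.90 and 15.8 TPM, ZEB2 2.99, 2.31 and 2.52 TPM and SNAI1 5.76, 3.55 and 0 TPM. Fibroblast surface genes FAP, PDGFRA and THY1 had 0 reads in all 3 libraries.

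The endothelial, leukocyte, muscle and neural lists each summed to under 100 TPM in every library. Of 7 endothelial genes only ESAM, an adhesion protein of tight junctions, was expressed, at 17.1, 13.5 and 8.69 TPM, while TEK, CDH5 and ERG had at most 2 reads per library. Of 7 leukocyte genes only CORO1A, an actin-binding coronin, was expressed, at 6.03, 6.19 and 1.28 TPM, while LYZ, CSF1R and FCER1G had at most 2 reads per library. Of 4 muscle genes 3 were expressed, led by TAGLN at 11.2, 10.8 and 5.17 TPM, with ACTA2 at 0.84, 1.26 and 0 TPM and ACTC1 at 0 reads. Of 6 neural genes 3 were expressed, led by the enolase ENO2 at 65.5, 68.3 and 25.3 TPM, followed by SYP at 4.68, 3.58 and 1.04 TPM and TUBB3 at 3.71, 3.60 and 0 TPM. The defining genes CHGA and GFAP had at most 1 read per library, and NCAM1 had at most 2 reads in control replicates 1 and 2 and 13 in control replicate 3.

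None of 4 liver and gut genes and none of 7 germ cell and cancer-testis genes was expressed. ALB had at most 2 reads per library, and MAGEA1, MAGEA4, MAGEA6 and PRAME had at most 2. TF had at most 1 read in control replicates 1 and 2 and 23 reads in control replicate 3, and SSX1 had 0 and 0 reads there and 11 in control replicate 3. Among the pluripotency genes POU5F1 had 28.6, 28.4 and 6.34 TPM, but its reads can come from near-identical pseudogenes, and SALL4 had 0.52, 0.52 and 0.84 TPM. SOX2 had at most 2 reads per library.

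Of the 14866 listed protein-coding genes, 1515 had under 3 reads in each of control replicates 1 and 2. A further 1481 lay between this limit and the threshold of expression. Genes that are not listed are outside these counts. Of the 1515, 636 had 0 reads in both libraries and 580 had 0 reads in all 3. In control replicate 3 a read was found for 110 of the 1515 genes, and 80 of these had at least 10 reads there. CCDC181 had 2, 2 and 56 reads, SCG5, which encodes a neuroendocrine chaperone, had 0, 0 and 40 reads, and ACKR2, a chemokine scavenger, had 0, 0 and 34 reads. These 3 genes were chosen after their values were seen. A gene absent in control replicates 1 and 2 was therefore not always absent in control replicate 3.

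Expressed genes of chromosome 20 stood at a higher level than those of other chromosomes. Their median was 51.6 TPM over 323 genes, while the medians of the other chromosomes lay between 17.8 TPM (chromosome 18) and 32.9 TPM (chromosome 17). Of the chromosome 20 genes 30.0% reached 100 TPM, against 6.98% to 19.0% on the other chromosomes. The share of listed genes that were expressed was 80.0%, close to the 79.8% over all chromosomes. In control replicate 3 the chromosome 20 median was 33.8 TPM, close to 33.4 TPM for chromosome 5. By windows of 5 Mb, the median was 69.2 TPM between 30 and 35 Mb and 54.4 TPM between 35 and 40 Mb. It was 66.6 TPM between 40 and 45 Mb, 38.0 TPM between 45 and 50 Mb and 42.9 TPM between 50 and 55 Mb. Further on it was 64.0 TPM between 55 and 60 Mb and 56.9 TPM between 60 and 65 Mb. The first 5 Mb had 40.0 TPM and the 10 genes between 10 and 15 Mb 7.73 TPM, so the level varied along the chromosome. The highest genes were ID1, FKBP1A (1237, 1373 and 823 TPM), a prolyl isomerase that binds FK506, and RPS21 (1103, 1427 and 2333 TPM). PCNA, the sliding clamp of DNA replication, had 817, 934 and 923 TPM. This pattern was noticed in the values, and DNA copy number was not measured.

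**Figure D4:**
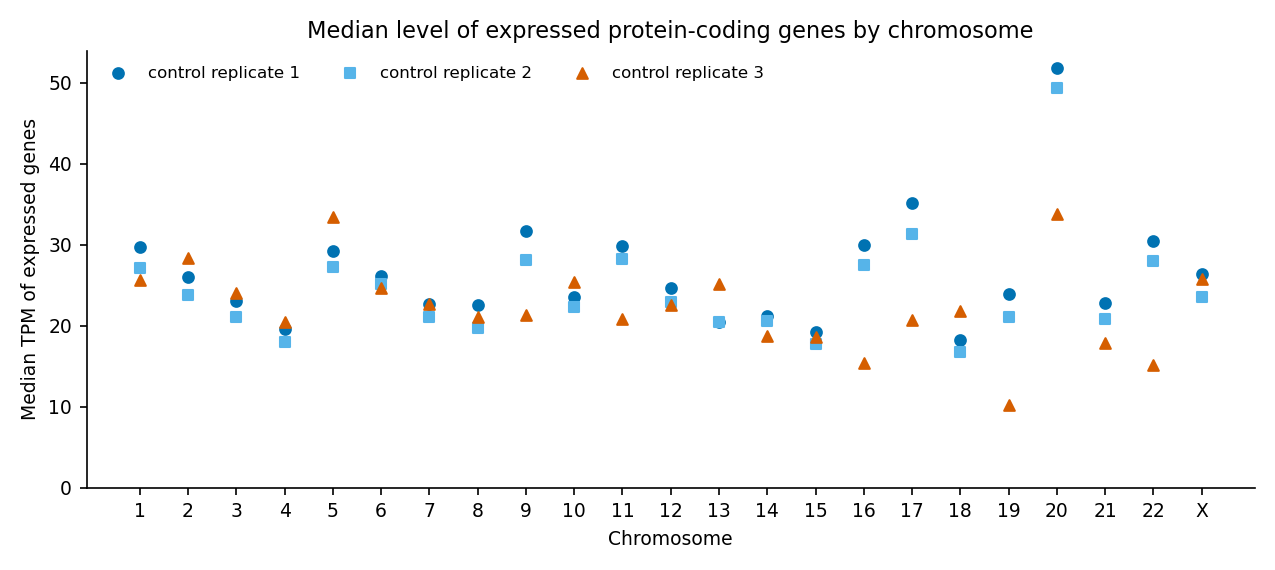
Median TPM of the expressed genes of each chromosome, with control replicates 1, 2 and 3 as separate points. Chromosome 20 lies above the other chromosomes in control replicates 1 and 2 (51.8 and 49.3 TPM), and chromosome 19 is lower in control replicate 3 (10.2 TPM) than in the other libraries (23.9 and 21.1 TPM).

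Genes of other biotypes held little of the reads, as 98.5%, 98.4% and 98.3% of reads fell in protein-coding genes. Of the 10 most abundant other genes 7 were pseudogenes, led by RPS28P7 (3559, 4335 and 3022 TPM), TMSB4XP8 (2092, 2579 and 3321 TPM) and RPL9P9 (1620, 2064 and 2350 TPM). Their parent genes are abundant and near-identical in sequence, so the origin of these reads cannot be told apart. The mitochondrial ribosomal RNA MT-RNR2 had 2437, 2440 and 8584 TPM. Among long non-coding RNAs NORAD, which binds Pumilio proteins, had 303, 252 and 470 TPM, GAS5 had 103, 110 and 25.7 TPM and MALAT1 108, 68.5 and 63.2 TPM. These 3 were chosen after their values were seen.

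Control replicates 1 and 2 agreed closely, and control replicate 3 differed from both. The Spearman correlation across the 11870 expressed genes was 0.993 between control replicates 1 and 2, and 0.865 between control replicate 3 and either of them. Genes are not independent replicates, so these are descriptions. The chi-square of the read counts per degree of freedom was 15.9 between control replicates 1 and 2, and 230 and 229 between control replicate 3 and each of them, so no library was a copy of another. In control replicate 3, 769 of the 11870 expressed genes had no read (6.48%, exact 95% binomial interval 6.04% to 6.94%). The interval treats genes as independent and does not measure the spread between libraries. None lacked a read in control replicate 1 or 2, but expressed genes were chosen by their counts in these libraries. A read in them was therefore nearly given in advance.

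The genes without a read were mainly low, but not all. The share was 61.1% of 535 genes with 10 to 20 normalized counts, 36.6% of 778 genes with 20 to 50, 96 of 741 genes with 50 to 100 and 0 of 3811 genes with 1000 or more. The most abundant of them was UBALD1, with 583, 540 and 0 reads. PFDN6, a subunit of the prefoldin chaperone, had 445, 506 and 0 reads, and AMH, which encodes the anti-Müllerian hormone, had 492, 418 and 0 reads. Between 20 and 50 normalized counts, the 285 genes without a read had a median transcript GC content of 58.6%, against 46.6% for the 493 genes with one.

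GC content moved with the level in control replicate 3 among abundant genes too. Over the 3811 expressed genes with at least 1000 normalized counts, the log2 ratio of control replicate 3 over the mean of control replicates 1 and 2 had a Spearman correlation of -0.82 with transcript GC content across genes. In 5 equal groups of genes from the lowest to the highest GC content, the median log2 ratios were 0.85, 0.47, 0.00, -0.69 and -1.38. The share of genes higher in control replicate 3 was 92.5% in the lowest group and 0.656% in the highest. By normalized counts, control replicate 3 was more than 2-fold higher in 411 genes and more than 2-fold lower in 833, together 32.6%. No gene differed more than 2-fold in normalized counts between control replicates 1 and 2. The part of GC content in the differences between libraries named above was not tested.

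**Figure D5:**
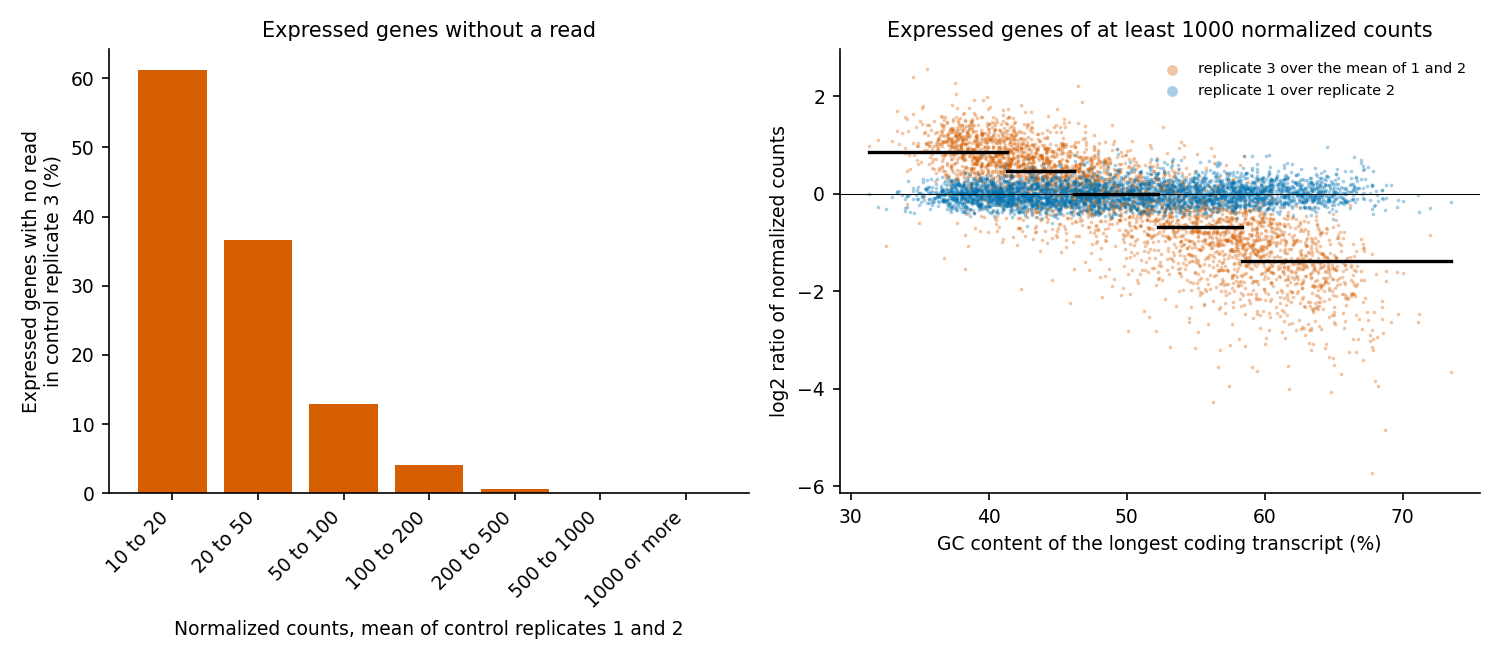
Left, share (%) of expressed genes with no read in control replicate 3 by level, which falls to 0 at 1000 normalized counts or more. Right, log2 ratio of normalized counts against transcript GC content (%) for genes with at least 1000 normalized counts, as orange points for control replicate 3 over the mean of control replicates 1 and 2 (black lines are medians of 5 groups, down to -1.38) and blue points for control replicate 1 over control replicate 2.

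Among the genes with at least 1000 normalized counts, those that stood highest in control replicate 3 were PPP1CB, ETNK1, BROX, LDHB, ARRDC3, DNAJC3, CCNC and LPP. PPP1CB, a catalytic subunit of protein phosphatase 1, had 633 TPM in control replicate 3, against 109 and 116 TPM in control replicates 1 and 2, a log2 ratio of 2.55 in normalized counts. ETNK1, an ethanolamine kinase, had 353 TPM, against 74.4 and 64.9 TPM. Those that stood lowest, under the same limit, were MZT2A, RASSF7, SERF2, LSR, TINAGL1, GADD45B, PPDPF and PPP1R14B. MZT2A, a part of the gamma-tubulin complex, had 1.19 TPM in control replicate 3, against 63.3 and 73.7 TPM, a log2 ratio of -5.73 in normalized counts. LSR, a protein of tricellular tight junctions, had 8.24 TPM, against 146 and 142 TPM.

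The difference between control replicates 1 and 2 moved with gene length. The Spearman correlation of their log2 ratio with length was 0.58 across the same 3811 genes, against 0.08 with GC content. In 5 groups from the shortest to the longest genes, the median log2 ratio of control replicate 1 over control replicate 2 was -0.19, -0.06, 0.00, 0.06 and 0.18. In the same groups the median log2 ratio of control replicate 3 over the mean of control replicates 1 and 2 was -0.51, -0.29, -0.14, 0.11 and 0.38, with a Spearman correlation of 0.29. The 8 genes with the largest difference were HSPG2, AHNAK, IGF2R, MDN1, FAT1, CELSR2, ALCAM and KMT2D, all higher in control replicate 1. HSPG2, which encodes the basement membrane proteoglycan perlecan, had 37.6 TPM in control replicate 1 and 18.2 TPM in control replicate 2. Its log2 ratio in normalized counts was 0.96. AHNAK, a very large scaffold protein, had 342 and 172 TPM. Long genes such as FN1, LAMA5 and COL4A2 were also higher in control replicate 1, and the part of length in their values was not tested.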

How the data were processed

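RNA was measured in 3 untreated T24 libraries. By the labels' protocols, Trizol was used to extract total RNA, and the library kit was NEBNext Ultra. The submitters' processing notes name hg38 and, with no role given, DESeq2 1.20.0, featureCounts 1.5.0-p3, fastp and HISAT2 2.0.5. Not given in the sources used here are settings, strand and annotation. The deposited signal values are normalized counts, that is reads over a size factor. Division of each column by its smallest positive value gave whole numbers (tolerance 1e-06) for 100% of values, which were taken as the reads. The deposited gene length equals the exon union of GENCODE release 29 in 23616 of 23619 genes.

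TPM were computed from recovered reads and deposited length, over all listed genes. No count test was run, since the libraries form 1 group. Scripts used Python 3.11.15, numpy 2.4.6, pandas 2.3.3, scipy 1.17.1 and matplotlib 3.10.9, and were tested on simulated data. Named genes are the 20 most abundant, the first 2 of each family, the first 5 and the near-absent genes of each lineage list, the 8 extremes of each library ratio and the 10 highest non-coding genes; others are marked in the text or illustrate a group. Ratios add a pseudocount of 1. Members and lists were chosen with earlier results of these data known. For 25 genes whose names were written as dates, symbols were restored from GENCODE by gene ID. Promoters were matched by gene to RefSeq. Reads of near-identical copies and of overlapping genes cannot be told apart: 226 expressed genes (1.90%) share at least 50% of their exon bases with another gene. The alternatives tried were other thresholds, scalings, lengths and sets of libraries. A few genes and 1 family are not reported here.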

Additional observations from a re-analysis of the deposited data

How the results depend on the processing

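No paired analysis was possible because only the control group was described and no result comes from a test. The number of expressed genes ranged from 11291 (control replicate 3 alone) to 12475 (threshold 5) around 11870. The share of TPM in the 10 most abundant genes, 11.2%, was 5.34% by normalized counts, 6.58% outside the mitochondrial genome, 13.1% over all 3 libraries, 18.1% in control replicate 3 alone and 8.12% with the longest coding transcript as length. Of the 20 most abundant genes 11 were kept by normalized counts and 15 both in control replicate 3 alone and with transcript length. Genes under 3 reads numbered 1515, and 636 had 0 reads. The share without a read in control replicate 3, 6.48%, was 9.70% at threshold 5 and 3.90% at threshold 20. The leading gene of 55 families was kept in 38 in control replicate 3 alone, 47 by normalized counts, 49 with transcript length and 54 without either control replicate 1 or 2. Of 66 alternative counts of single lineage lists, 55 stayed within 1.5 times and 11 moved further, all in lists with 3 or fewer expressed genes. The settings with transcript length, and the number of expressed genes in control replicate 3 alone, were chosen after seeing the data. Depth limits what can be said of genes under 3 reads. Why these values moved was not tested.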
